A study of Mus musculus with 9 samples.

Results

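The insulin-like growth factor (IGF) genes described here are 9 of the 47937 genes counted by RNA sequencing in mouse embryonic fibroblasts (MEFs). They are the ligand gene Igf1, the receptor genes Igf1r and Igf2r, and the binding protein genes Igfbp2, Igfbp3, Igfbp4, Igfbp5, Igfbp6 and Igfbp7, and each was found in the count table by its symbol in the gene annotation. The study asked how loss of the methyltransferases acting on lysine 9 of histone H3, whose methylation marks silent chromatin, affects heterochromatin and transcription. The RNA sequencing it describes is of Eset and compound mutants, not of the mutants compared here. WT denotes the parental clone (E1c), which carries a conditional Eset1 allele and a Cre inducible by tamoxifen, S1S2 denotes Suv39h1/Suv39h2 KO cells and G9Gl denotes G9a/Glp KO cells, with 3 libraries each. Both mutants descend from E1c by CRISPR/Cas9 and each is 1 clone chosen by loss of the proteins on western blots, so genotype and clone cannot be told apart. All 3 groups derive from this background. Per the study's methods, lines with disrupted genes later received a further inducible Cre construct with a puromycin resistance gene and were kept in puromycin. Whether the WT cultures had the same construct and selection, and whether tamoxifen was added to the cultures analysed, is not given in the sources used here.

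The libraries held between 21319778 and 32157623 gene counts, and the 9 genes together took between 0.0818% and 0.101% of them. The fibroblast markers checked, 12 genes, were all detected in every genotype, with a summed level of 11343 to 12995 CPM (counts scaled to a common library size) in WT, 8642 to 8712 in S1S2 and 9267 to 10154 in G9Gl. Single fibroblast markers moved more than this sum: Col1a2 stood at 2395 CPM in WT, 395 in S1S2 and 2030 in G9Gl, Col3a1 at 1527, 190.1 and 844, Pdgfra at 14.5, 3.54 and 4.02, and Thy1 at 4.98, 2.05 and 38.3. In S1S2 the means of Vim, Loxl1 and Fn1 were above WT, and those of the other markers among the 12 were below it. Vim stood at 1458, 2399 and 1250 CPM in the same order, Loxl1 at 160, 212 and 308, and Fn1 at 1628, 1731 and 1497. Among markers of other cells, the summed level of 6 epithelial genes was 0.298 to 0.548 CPM in WT, 4.67 to 5.55 in S1S2 (mostly Krt8) and 0.294 to 0.395 in G9Gl. That of 5 endothelial genes was 0.123 to 0.193, 1.55 to 1.75 and 0.647 to 1.90 in the same order, and that of 6 blood and macrophage genes 4.34 to 4.46, 3.24 to 4.09 and 4.67 to 4.96. In G9Gl 5 muscle genes summed to 9.93 to 11.4 CPM against 2.86 to 3.26 in WT and 2.70 to 3.81 in S1S2, with Des at 7.60 and Acta1 at 2.97 CPM and Myod1 at 0 counts in every library. Of 4 hepatocyte genes, which summed to 3.70 to 5.09 CPM in G9Gl against at most 0.0645 in WT and 0.0729 in S1S2, Cyp7a1 had 101 to 144 counts in G9Gl and 0 elsewhere, and Alb had 0 in every library. The 4 adipocyte genes stayed at or under 0.376 CPM. The sum of 5 neural and Schwann cell markers was 26.1 to 27.3 CPM in WT, 38.8 to 43.2 in S1S2 and 18.4 to 26.6 in G9Gl, with Sox10 and Rbfox3 at no more than 1 count in any library. The part of these lists in the results below was not tested.

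IGF1 and IGF2 are secreted growth factors that signal mainly through the IGF1 receptor, a tyrosine kinase that drives growth and survival of fibroblasts. IGF2R, also the mannose 6-phosphate receptor, takes up IGF2 and lysosomal enzymes and does not signal as a kinase. The IGF binding proteins are secreted, hold the ligands away from the receptor or deliver them to it, and are cut by proteases such as PAPP-A. They differ in preference: IGFBP6 binds IGF2 better than IGF1, IGFBP3 is the main carrier in blood, and IGFBP7 binds IGFs only weakly.

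Only 5 of the 9 genes were clearly transcribed in these cells, and promoter sequences are shown for the pair of binding protein genes that were (Igfbp4 and Igfbp6) and for the pair that were near absent in WT and were called in a mutant (Igfbp3 and Igfbp7). The letters are the 250 bases before the RefSeq transcript start on GRCm38.p6, 5′ to 3′ on the strand of the gene, and capitals mark CpG dinucleotides, the usual site of DNA methylation in mammals, which was not measured here.
Igfbp4 (chr11:99040994-99041243, plus strand): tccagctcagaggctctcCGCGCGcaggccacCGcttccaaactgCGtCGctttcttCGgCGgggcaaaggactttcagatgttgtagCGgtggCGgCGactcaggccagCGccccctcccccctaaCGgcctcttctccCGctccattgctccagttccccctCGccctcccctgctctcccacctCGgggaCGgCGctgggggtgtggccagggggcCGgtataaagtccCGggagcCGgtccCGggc
Igfbp6 (chr15:102143936-102144185, plus strand): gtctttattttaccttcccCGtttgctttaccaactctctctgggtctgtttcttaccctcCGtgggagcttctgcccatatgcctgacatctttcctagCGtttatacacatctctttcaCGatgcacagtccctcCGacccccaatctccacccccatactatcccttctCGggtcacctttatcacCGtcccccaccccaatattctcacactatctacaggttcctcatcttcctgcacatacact
Igfbp3 (chr11:7213924-7214173, minus strand): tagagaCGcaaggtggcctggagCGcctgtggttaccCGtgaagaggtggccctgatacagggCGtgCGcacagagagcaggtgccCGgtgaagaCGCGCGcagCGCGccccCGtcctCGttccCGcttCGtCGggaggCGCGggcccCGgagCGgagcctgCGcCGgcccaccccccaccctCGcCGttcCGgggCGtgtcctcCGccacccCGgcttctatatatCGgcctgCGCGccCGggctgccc
Igfbp7 (chr5:77408046-77408295, minus strand): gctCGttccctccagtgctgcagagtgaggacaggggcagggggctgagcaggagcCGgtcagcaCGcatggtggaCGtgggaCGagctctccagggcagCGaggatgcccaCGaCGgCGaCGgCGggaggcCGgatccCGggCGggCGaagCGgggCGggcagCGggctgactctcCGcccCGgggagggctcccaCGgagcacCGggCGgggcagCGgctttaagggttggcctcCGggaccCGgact

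The window of Igfbp4 held 22 CpG, that of Igfbp6 held 7, that of Igfbp3 held 32 and that of Igfbp7 held 26. Over all 32851 RefSeq windows of this length the median was 6 and the quartiles were 2 and 16. Igfbp6 was thus near the median, and the windows of the abundant Igfbp4 and of the scarce Igfbp3 and Igfbp7 all lay above the upper quartile. The core of the TATA box, TATAAA, was searched on both strands and occurs in 12.4% of all windows. It lay 28 bases before the start of Igfbp4 in the direction of the gene, and 148 bases before that of Igfbp6 on the opposite strand. The GC box core GGGCGG, present in 32.7% of windows, was found in 4 places before Igfbp7 and in neither the Igfbp3, the Igfbp4 nor the Igfbp6 window, and CCAAT, present in 33.8% of windows, was found before Igfbp6 only among these 4 genes. None of these motifs overlapped another. Among the other members, Igf1r held 42 CpG, Igf2r 27, Igfbp5 10 and the windows of Igfbp2 14 and 11. The window of Igf1 lies wholly inside annotated exons of the gene, so its count of CpG is not given.

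**Figure D1:**
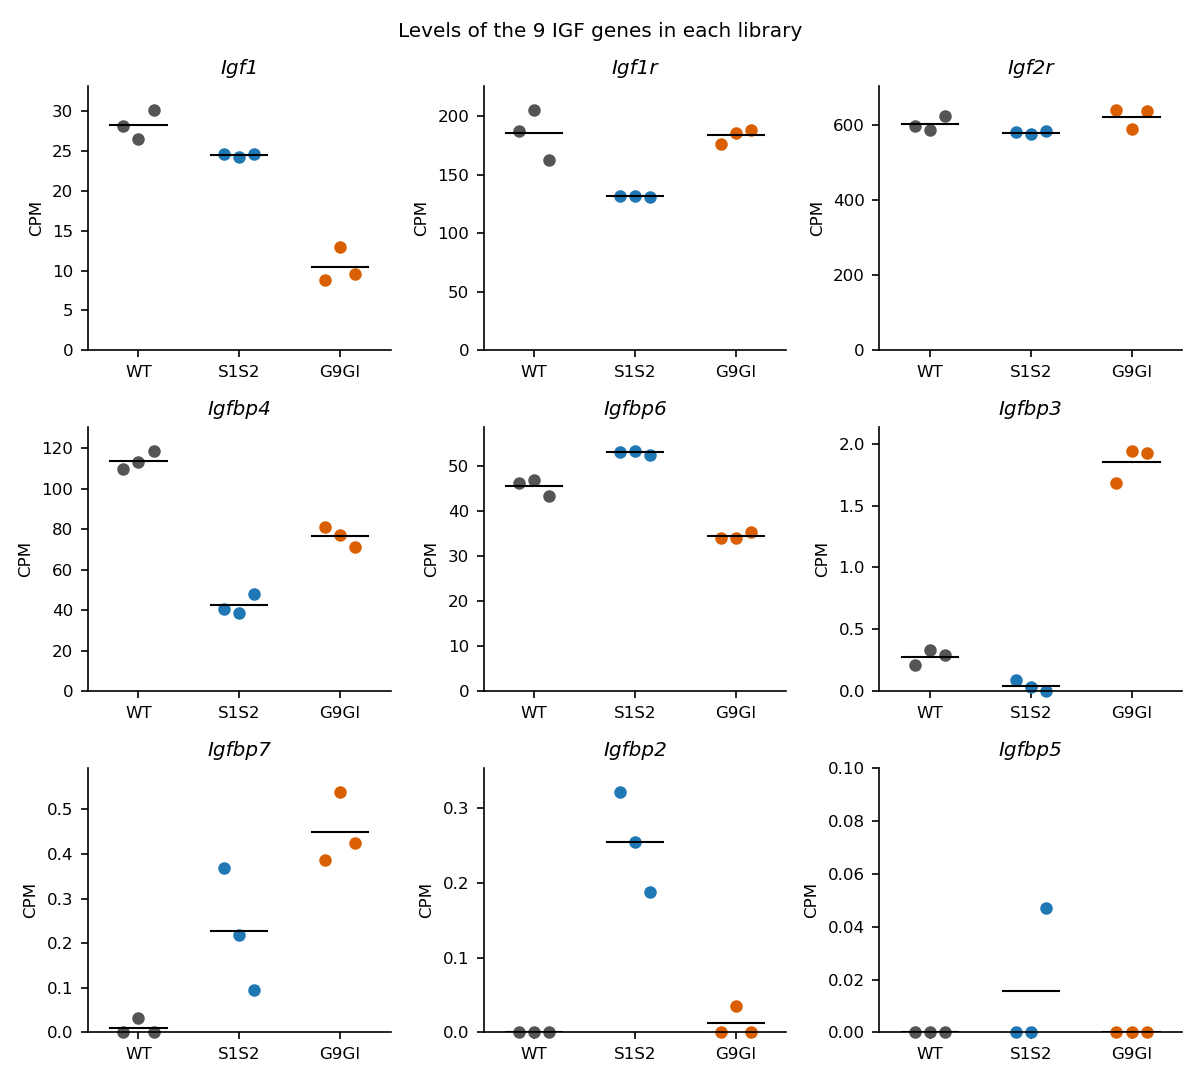
Level of each gene in CPM (linear axes from 0, a separate scale per gene) in the 3 libraries of WT, S1S2 and G9Gl (points), with the mean of each genotype as a line. Igf1 is lowest in G9Gl, Igfbp4 and Igf1r are lowest in S1S2, and the 4 genes in the last panels (Igfbp3, Igfbp7, Igfbp2 and Igfbp5) stay under 2 CPM in every library.

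Levels were compared between genes after division by exon length (CPM per kb). In WT, Igf2r was highest with 64.7 ± 2.03 CPM per kb (SD, n = 3) and exceeded 96.0% of the genes tested. Igfbp6 followed with 41.0 ± 1.68, Igfbp4 with 25.7 ± 1.02, Igf1r with 11.0 ± 1.27 and Igf1 with 2.85 ± 0.186. Igfbp3 reached 0.0890 ± 0.0187 CPM per kb, above only 4.74% of genes, and Igfbp7, Igfbp2 and Igfbp5 lay lower still. The same 5 genes led in the same order in S1S2 and G9Gl, and the libraries of neighbours in this order did not overlap. Among the scarce genes the order differed: Igfbp7 (0.188 ± 0.113 CPM per kb) and Igfbp2 (0.138 ± 0.0362) overlapped at the top in S1S2, and Igfbp3 (0.591 ± 0.0458) led Igfbp7 (0.372 ± 0.0657) in G9Gl. Of these 9 genes, 7 passed the filter on low counts and were tested, and Igfbp2 and Igfbp5 did not.

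A gene was said to rise or fall at an adjusted p of at most 0.01 (quasi-likelihood test of edgeR, adjusted by Benjamini and Hochberg over 15540 genes), and was called where the fold change was also at least 2. In S1S2 against WT, 3 members were called, Igfbp4 and Igfbp3 lower and Igfbp7 higher, where 9.0% of all genes tested were called (4.66% higher and 4.34% lower). Without the cutoff on fold change, 5 members passed, 2 higher and 3 lower, against 37.9% of all genes (20.3% higher and 17.6% lower). The calls of Igfbp3 and Igfbp7 in this contrast rest on few counts: only 1 member (Igfbp4) was called in the fit of these genotypes alone, with glmTreat, or with 10 counts required in every library. Both genes passed the filter on low counts only through G9Gl, where they are highest, so that their being called in contrasts with G9Gl is no support for a pattern among the members. In G9Gl against WT, 3 were called, Igf1 lower and Igfbp3 and Igfbp7 higher, where 10.2% of all genes were called (6.77% higher and 3.40% lower). There too 5 passed without the cutoff, 2 higher and 3 lower, against 35.0% (19.0% higher and 16.0% lower). Set against S1S2, G9Gl had 2 called members, Igf1 lower and Igfbp3 higher, where 13.1% of all genes were called (7.97% higher and 5.08% lower), and 5 passed without the cutoff, 3 higher and 2 lower, against 42.6% (21.6% higher and 21.1% lower). With so few members these counts are a description of the members. Both mutants are set against the same WT libraries, so these comparisons are not independent. In bulk RNA, fewer expressing cells and less RNA per cell cannot be told apart.

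**Figure D2:**
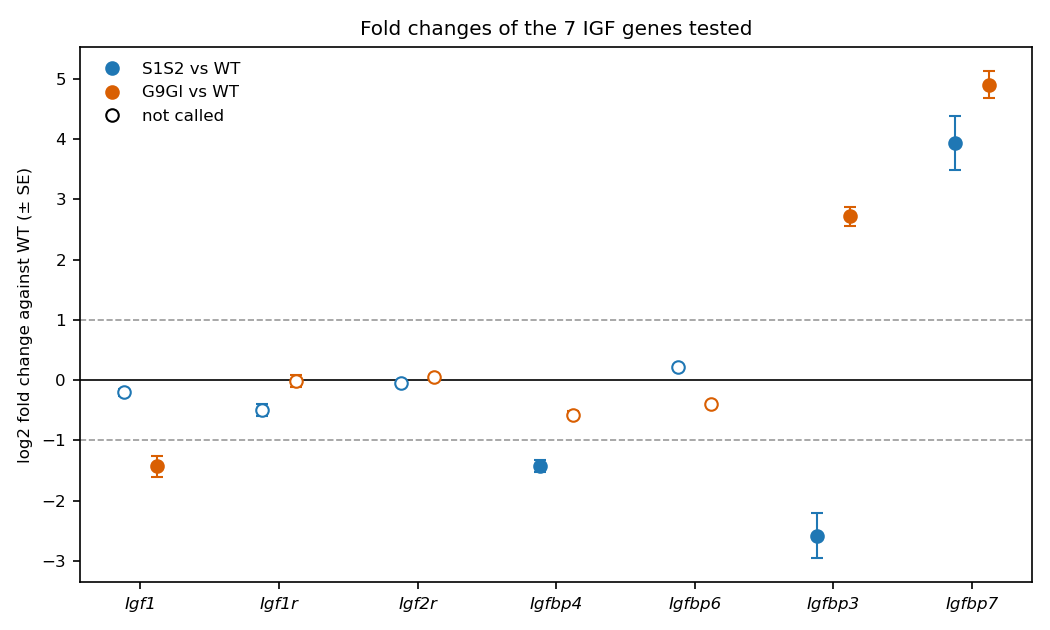
Log2 fold change against WT of the 7 genes tested (points, ± SE) in S1S2 (blue) and G9Gl (orange), with filled points for calls and dashed lines at a fold change of 2. Igf1 passes the lower line only in the G9Gl comparison (-1.43) and Igfbp4 only in the S1S2 comparison (-1.42), and the values of Igfbp3 and Igfbp7 rest on few counts.

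The ligand gene Igf1 (ENSMUSG00000020053.18, protein coding, chr10:87858265-87937042, plus strand, GRCm38) lost most of its transcript in G9Gl cells. Its level was 28.1, 26.4 and 30.1 CPM in the WT libraries, 24.6, 24.2 and 24.6 in S1S2, and 8.81, 12.9 and 9.63 in G9Gl. The G9Gl libraries lay below all others, and no pair of genotypes overlapped, which held for 52.8% of all genes between G9Gl and WT for 56.0% between S1S2 and WT and for 60.8% between the mutants. In G9Gl, Igf1 fell 2.70-fold against WT (log2 fold change -1.43, SE 0.175, adjusted p = 2.60e-09) and was 2.35-fold lower than in S1S2 (-1.23, SE 0.166, adjusted p = 2.19e-08). The latter call was lost when the fold change itself was tested against 2 (glmTreat, adjusted p = 0.0541). The difference between S1S2 and WT missed the test (-0.21, SE 0.055, adjusted p = 0.0838), and with the median of chromosome 10 in S1S2 (-0.15) removed it was -0.051. The other ligand gene, Igf2, was at 33.0 ± 1.95 CPM in WT, 7.74 ± 1.04 in S1S2 and 0.104 ± 0.0371 in G9Gl, so that it fell in both mutants (log2 fold changes -2.10 and -8.26), although 60.7% of its 75-mers also occur in other annotated genes. Igf2 had 2, 4 and 3 counts in the G9Gl libraries, so the size of its fall there rests on few counts. Of the ligands, Igf1 and Igf2 therefore both fell in G9Gl, and Igf2 alone passed the test in S1S2.

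The receptor gene Igf1r (chr7:67952827-68233668, plus strand) differed in S1S2 only modestly. It was measured at 188, 205 and 163 CPM in WT, at 132, 131 and 131 in S1S2, and at 176, 186 and 188 in G9Gl. All S1S2 libraries lay under the lowest library of WT and of G9Gl, while G9Gl lay within the WT range. Igf1r fell 1.41-fold in S1S2 (adjusted p = 4.34e-06, log2 fold change -0.49, SE 0.097), below the cutoff on fold change, and was 1.40-fold higher in G9Gl than in S1S2 (0.48, SE 0.029, adjusted p = 4.32e-06). Between G9Gl and WT the log2 fold change was -0.013 (SE 0.101, adjusted p = 0.882). The spread in WT, 21.3 CPM, was the widest of the 3 genotypes, compared with 0.507 in S1S2.

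Igf2r (chr17:12682406-12769664, minus strand), the scavenger receptor of IGF2 and an imprinted gene in the mouse, was the steadiest member. The libraries held 596, 587 and 623 CPM in WT, 580, 574 and 582 in S1S2, and 639, 588 and 637 in G9Gl. The log2 fold changes were -0.057 (SE 0.027, adjusted p = 0.294) in S1S2 and 0.045 (SE 0.047, adjusted p = 0.427) in G9Gl against WT, and 0.10 (SE 0.040, adjusted p = 0.0576) between the mutants, so no comparison passed the test. Airn, the antisense RNA of the imprinted locus, was present at 13.7 ± 1.86 CPM in WT, 11.6 ± 0.269 in S1S2 and 14.4 ± 1.03 in G9Gl, and no exon of another gene overlaps those of Igf2r. Set against each other per length, Igf2r exceeded Igf1r by a ratio of 5.94 ± 0.892 in WT, 7.95 ± 0.0764 in S1S2 and 6.12 ± 0.411 in G9Gl. The insulin receptor gene Insr, which can pair with IGF1R in hybrid receptors, had a log2 fold change of 0.19 in S1S2 against WT (SE 0.054, adjusted p = 0.00354, edgeR), which was 0.038 after removal of chromosome medians, and the adjusted p was 0.0171 without a composition factor and from 0.0125 to 0.0247 without WT replicate 1 or 2 or S1S2 replicate 2 or 3. The ratio of Igf1r to Insr per length was 1.96 ± 0.306 in WT, 1.21 ± 0.0631 in S1S2 and 2.03 ± 0.115 in G9Gl. These ratios are a description and were not tested.

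Among the binding proteins, Igfbp4 (ENSMUSG00000017493.12, chr11:99041244-99054392, plus strand), whose product restrains IGF until it is cut by PAPP-A, fell in both mutants. It stood at 110, 113 and 119 CPM in WT, at 40.9, 38.6 and 48.2 in S1S2, and at 81.2, 76.9 and 71.3 in G9Gl. The 3 genotypes were fully separated in the order WT, G9Gl, S1S2. Igfbp4 fell 2.68-fold in S1S2 (adjusted p = 2.74e-11, log2 fold change -1.42, SE 0.101). In G9Gl the fall was 1.49-fold and below the cutoff (adjusted p = 1.32e-06, log2 fold change -0.57, SE 0.063). The direct contrast was 1.8-fold in favour of G9Gl (0.85, SE 0.110, adjusted p = 1.55e-08), so the falls differed in size. The call in S1S2 was kept in all 15 alternatives tried for it, with log2 fold changes between -1.52 and -1.36.

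Igfbp6 (chr15:102144362-102149511, plus strand), the binding protein with a preference for IGF2, moved little and in opposite directions. Its levels were 46.2, 47.0 and 43.5 CPM in WT, 53.3, 53.4 and 52.6 in S1S2, and 34.0, 34.2 and 35.5 in G9Gl. Igfbp6 rose 1.17-fold in S1S2 (adjusted p = 0.00135, log2 fold change 0.22, SE 0.035). It fell 1.32-fold in G9Gl (adjusted p = 4.39e-06, log2 fold change -0.40, SE 0.040), with no overlap between any pair of genotypes. Between the mutants the log2 fold change was -0.62 (SE 0.021, adjusted p = 1.47e-08). None of these differences reached a fold change of 2.

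Igfbp3 (ENSMUSG00000020427.11, chr11:7206086-7213923, minus strand), in blood the main IGF carrier, was scarce in WT, rose in G9Gl and was nearly lost in S1S2. The libraries held 7, 10 and 9 counts in WT, 2, 1 and 0 in S1S2, and 48, 54 and 59 in G9Gl. In CPM this was 0.279 ± 0.0585 in WT, 0.0428 ± 0.0463 in S1S2 and 1.85 ± 0.143 in G9Gl, so even the highest genotype was low. From the pooled counts, G9Gl exceeded WT by a ratio of 6.68 (95% interval 4.39 to 10.5, exact for Poisson counts) and S1S2 by 43.5 (14.6 to 213), and WT exceeded S1S2 by 6.51 (1.995 to 33.6). Such intervals cover counting error only, because the counts of the 3 libraries were pooled, which leaves out the spread between cultures. PCR copies of a molecule were not told apart, and the intervals do not allow for them. Igfbp3 passed the filter on low counts only through the G9Gl libraries and was not tested in a fit of S1S2 and WT alone. In the fit of all libraries the adjusted p was 8.87e-07 for G9Gl against WT, 3.22e-08 for G9Gl against S1S2 and 0.00356 for S1S2 against WT (edgeR). The last call was lost with glmTreat (adjusted p = 0.0829), without WT replicate 2 (0.0117), without S1S2 replicate 2 (0.0202) and without S1S2 replicate 3 (0.0162).

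Igfbp7 (chr5:77349240-77408041, minus strand), a secreted protein of the family with weak affinity for IGFs, was all but absent in WT and detected in both mutants. Its counts were 0, 1 and 0 in WT, 8, 6 and 2 in S1S2, and 11, 15 and 13 in G9Gl. With only 1 count in WT, the ratios from pooled counts were wide, 21.3 for S1S2 (95% interval 3.31 to 893) and 42.1 for G9Gl (7.12 to 1703), and G9Gl exceeded S1S2 by 1.97 (1.08 to 3.78). Igfbp7, too, entered the test only through the G9Gl libraries and was not tested in a fit of S1S2 and WT alone. In the fit of all libraries it passed against WT with an adjusted p of 0.00196 in S1S2 and 5.19e-05 in G9Gl, and missed it between the mutants (adjusted p = 0.0940, edgeR). The call in S1S2 was lost with glmTreat (adjusted p = 0.0308), without WT replicate 1 (0.0119) and without S1S2 replicate 1 (0.0146). An exon of Polr2b, which encodes a subunit of RNA polymerase II, overlaps Igfbp7 by 85 bases on the opposite strand, and whether strand was used in counting is not given in the sources used here. Polr2b was present at 230 ± 6.99 CPM in WT, 217 ± 5.08 in S1S2 and 236 ± 13.6 in G9Gl, while Igfbp7 ranged from 0 to 0.539 CPM.

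Igfbp2 (chr1:72824503-72852474, plus strand) and Igfbp5 (chr1:72857932-72874884, minus strand) lie side by side with their ends facing, and neither was expressed at a level that passed the filter. Igfbp2 had 0 counts in every WT library, 7, 7 and 4 in S1S2, and 0, 1 and 0 in G9Gl. Against a floor of 3 counts over the 3 WT libraries (0.0320 CPM), the pooled level of Igfbp2 in S1S2 was 7.99-fold higher. The counting error of the 18 counts in S1S2 is left out of this value, so it is not a lower limit. Without a filter on low counts the difference between S1S2 and WT was called (adjusted p = 3.39e-04, edgeR), as was that to G9Gl (adjusted p = 0.00325). Igfbp5 had 1 count in S1S2 replicate 3 and 0 counts in the other 8 libraries. A count of 0 allows up to 0.0320 CPM in WT and 0.0345 CPM in G9Gl over the 3 libraries, so Igfbp5 was not detectable at this depth in those genotypes. Igfbp1, the remaining high-affinity binding protein, which is located next to Igfbp3, had 0 counts in all 9 libraries.

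**Figure D3:**
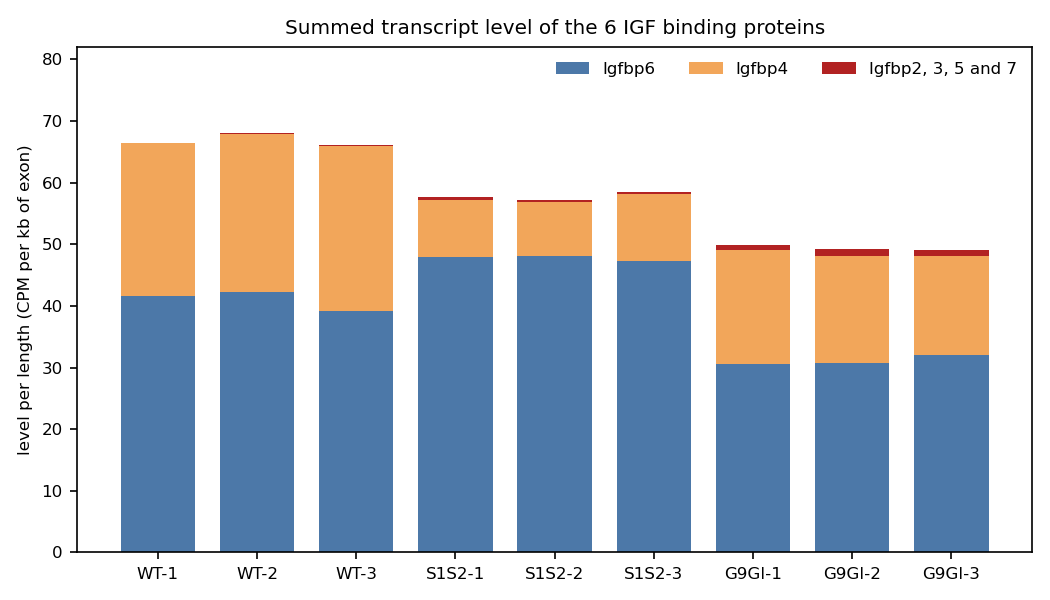
Summed level per length (CPM per kb of exon, stacked bars from 0) of the 6 binding protein genes in each of the 9 libraries, split into Igfbp6, Igfbp4 and the sum of Igfbp2, Igfbp3, Igfbp5 and Igfbp7. The bars fall from 66.8 in WT to 57.7 in S1S2 and 49.4 in G9Gl on average, and the Igfbp4 part is smallest in S1S2.

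Per length, the transcripts of the 6 binding proteins summed to 66.8 ± 1.04 CPM per kb in WT, 57.7 ± 0.646 in S1S2 and 49.4 ± 0.409 in G9Gl. The ranges did not overlap, from 66.0 to 68.0 in WT, from 57.1 to 58.4 in S1S2 and from 49.1 to 49.9 in G9Gl. Igfbp6 made up 61.3% ± 1.84 of this sum in WT, 82.7% ± 1.58 in S1S2 and 63.0% ± 1.93 in G9Gl. The share of Igfbp4 was 38.5% ± 1.84, 16.7% ± 1.76 and 35.0% ± 2.01, in the same order. The composition was therefore shifted towards Igfbp6 in S1S2, while in G9Gl both abundant genes were lower and their proportion stayed near that of WT. Igfbp3 and Igfbp7 contributed 1.2% ± 0.102 and 0.754% ± 0.136 in G9Gl, their highest shares. Igfbp4 exceeded Igf1 per length by a ratio of 9.05 ± 0.467 in WT, 3.90 ± 0.435 in S1S2 and 16.9 ± 3.67 in G9Gl, with no overlap between genotypes. These shares were not tested.

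The genes with profiles most like those of the called members were found by the distance between log2 CPM over the 9 libraries, each profile centred on its mean. They were Nmb (distance 0.304) and Npas3 (0.452) for Igf1, Mab21l1 (0.316) and Marcks (0.323) for Igfbp4, Gm26849 (0.745) and Ly9 (0.845) for Igfbp3, and Ccn2 (0.858) and Syk (1.02) for Igfbp7. Marcks, which encodes a substrate of protein kinase C, went from 167 CPM in WT to 62.2 in S1S2 and 122 in G9Gl, and Ly9 from 2.74 to 0.941 and 16.4. The distances are larger for the scarce genes Igfbp3 and Igfbp7, and a likeness over 3 genotypes is shared by many genes. Around Igfbp4, 0 of 9 protein-coding genes tested within 250 kb were called in S1S2 against WT (5 at an unadjusted p under 0.05, edgeR), where 9.0% of all genes were called and 54.6% had an unadjusted p under 0.05, and their median log2 fold change was -0.10. One of them, Tns4, was called higher in G9Gl against WT (log2 fold change 2.38, adjusted p = 1.43e-06) and against S1S2 (2.79, adjusted p = 6.66e-07). Of 3 such genes around Igfbp7, 0 were called in any contrast. Rest rose in G9Gl against WT (0.27, adjusted p = 7.43e-05, edgeR) and was higher than in S1S2 (0.29, adjusted p = 2.96e-05), below the cutoff on fold change. Polr2b differed between the mutants only at an unadjusted p under 0.05 (edgeR). Of all genes, 10.2% were called in G9Gl against WT and 13.1% against S1S2. The adjusted limit was passed by 35.0% and 42.6%, and 52.4% and 57.8% had an unadjusted p under 0.05. The single gene tested near Igfbp3, Adcy1, stood at 0.0968 CPM in WT, 0.0157 in S1S2 and 0.495 in G9Gl, so it entered the test only through G9Gl, and its calls there rest on few counts. No tested protein-coding gene started within 250 kb of Igf1.

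**Figure D4:**
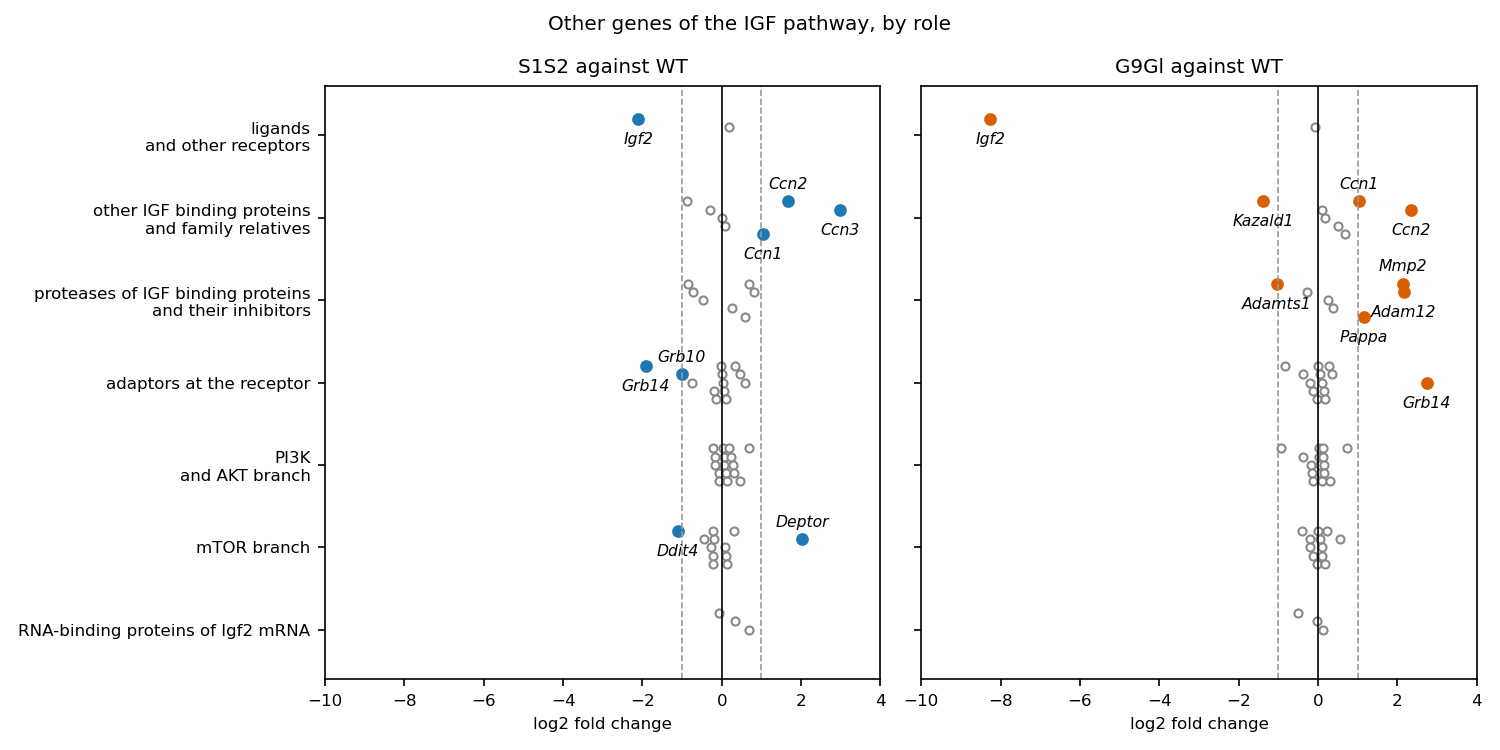
Log2 fold changes against WT of the 60 tested genes of the wider IGF pathway, by role (rows), in S1S2 (left) and G9Gl (right), with filled and named points for calls and dashed lines at a fold change of 2. The PI3K and AKT genes all lie within the dashed lines in both mutants, Igf2 lies far to the left in G9Gl (-8.26, resting on few counts there), and the calls for Grb14 have opposite signs (-1.92 and 2.74).

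The rest of the pathway was followed in a list of 71 genes, of which 60 were tested. In S1S2 against WT, 8 were called, 4 higher and 4 lower, and the median log2 fold change was 0.055, with 9.0% called and a median of -0.0032 over all genes tested. In G9Gl against WT, 9 were called, 6 higher and 3 lower, with a median of 0.083, against 10.2% called and -0.0067 over all genes. Between the mutants, 8 were called, 4 higher and 4 lower in G9Gl, with a median of 0.024, against 13.1% and 0.00016. The 11 genes that were not tested include Igfbp1, Ins1, Ins2, Igfals and Irs4.

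Of 7 tested relatives of the binding proteins, 3 were called in S1S2 and 3 in G9Gl against WT and 2 between the mutants, where 9.0%, 10.2% and 13.1% of all genes were called. Ccn1 and Ccn2, matricellular proteins with an IGFBP-like domain, were called higher in both mutants. Ccn2 stood at 34.2 ± 8.85 CPM in WT, at 108 ± 14.0 in S1S2 and at 174 ± 20.4 in G9Gl, with log2 fold changes of 1.67 (SE 0.240, adjusted p = 1.59e-08) and 2.35 (SE 0.234, adjusted p = 1.24e-10). Ccn1 lay at the cutoff, with log2 fold changes of 1.05 in S1S2 and 1.03 in G9Gl, and with chromosome medians removed the former was 0.94 and no longer called. Ccn3 was called higher in S1S2 only (2.98, adjusted p = 4.01e-07) and was called lower in G9Gl than in S1S2 (-2.88, adjusted p = 4.38e-07). Ccn5 was called higher in G9Gl than in S1S2 (1.03, adjusted p = 0.00132) and Kazald1 lower in G9Gl than in WT (-1.38, adjusted p = 0.00624), the latter with 4 to 29 counts per library and lost with DESeq2 (adjusted p = 0.0163). Of 7 tested proteases and inhibitors, 4 were called in G9Gl and 0 in S1S2 against WT, against 10.2% and 9.0% of all genes called, and all 7 had an unadjusted p under 0.05 in each (edgeR), as had 52.4% of all genes in G9Gl and 54.6% in S1S2. Whether the mutants differ in this count was not tested. Adam12, a metalloprotease that can cut binding proteins, rose from 4.99 ± 0.996 to 22.4 ± 1.77 CPM in G9Gl (2.17, SE 0.188, adjusted p = 7.71e-10), and Mmp2, a gelatinase, from 1.96 ± 0.515 to 8.65 ± 1.36 (2.13, SE 0.240, adjusted p = 1.50e-08). Both were also called higher in G9Gl than in S1S2 (1.36 and 2.86). In S1S2 against WT, Adam12 rose by less (0.81, adjusted p = 3.42e-04, edgeR) and Mmp2 missed the test (-0.72, adjusted p = 0.0177). Pappa, the protease of IGFBP4, rose in G9Gl from 0.630 ± 0.123 to 1.40 ± 0.215 CPM (1.15, SE 0.194, adjusted p = 0.00104), and Adamts1 fell (-1.03, SE 0.142, adjusted p = 9.14e-08), with -0.83 after removal of chromosome medians. Adamts1 fell in S1S2 as well, below the cutoff (-0.47, adjusted p = 4.73e-04, edgeR).

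Downstream of the receptors, the calls in S1S2 against WT were 2 of 13 adaptors, 0 of 16 PI3K and AKT genes and 2 of 12 mTOR genes, and in G9Gl 1, 0 and 0, where 9.0% and 10.2% of all genes were called. Grb14, an adaptor that restrains insulin and IGF receptors, was at 1.68 ± 0.319 CPM in WT, 0.431 ± 0.175 in S1S2 and 11.2 ± 0.548 in G9Gl, and was called in opposite directions. Its log2 fold change was -1.92 (SE 0.370, adjusted p = 1.45e-05) in S1S2, 2.74 (SE 0.165, adjusted p = 9.78e-11) in G9Gl and 4.66 (SE 0.337, adjusted p = 3.12e-12) in the direct contrast. Its relative Grb10 fell in S1S2 from 360 ± 15.6 to 180 ± 13.6 CPM (-1.01, SE 0.072, adjusted p = 6.76e-11), at the cutoff. It fell less in G9Gl, to 279 ± 11.1 CPM (-0.37, adjusted p = 1.49e-05, edgeR). In the PI3K and AKT branch the unadjusted p was under 0.05 for 10 of the 16 genes in S1S2 and 11 in G9Gl (edgeR), beside 54.6% and 52.4% of all genes. The limit on the adjusted p (0.01) was passed by 8 of them in S1S2 (5 higher and 3 lower) and 5 in G9Gl (2 higher and 3 lower). Of all genes, 37.9% passed it in S1S2 and 35.0% in G9Gl. In the mTOR branch the unadjusted p was under 0.05 for 11 of 12 genes in S1S2 and 7 in G9Gl. The adjusted limit was passed by 9 in S1S2 (2 higher and 7 lower, with 20.3% and 17.6% of all genes). In G9Gl it was passed by 4 (2 higher and 2 lower, with 19.0% and 16.0% of all genes). Pik3cd was called lower in G9Gl than in S1S2 (-1.41, SE 0.039, adjusted p = 1.21e-09). Of the mTOR genes, Deptor, an inhibitor of mTOR, rose in S1S2 from 5.32 ± 0.602 to 21.8 ± 0.645 CPM (2.03, SE 0.094, adjusted p = 1.99e-11) and was called lower in G9Gl than in S1S2 (-1.48, adjusted p = 3.96e-10). Against WT, Deptor also rose in G9Gl, to 7.80 ± 0.667 CPM (0.55, adjusted p = 3.08e-04, edgeR). Ddit4, another brake on mTOR, fell in S1S2 from 75.5 ± 0.232 to 35.1 ± 8.23 CPM (-1.11, SE 0.185, adjusted p = 4.80e-07), or -0.96 with chromosome medians removed, which is below the cutoff. In G9Gl, Ddit4 fell to 56.9 ± 8.50 CPM (-0.41, adjusted p = 0.00564, edgeR). Calls near the cutoff were also lost in some alternatives for Grb10 (4 of 15), Ccn1 (3 of 15 in each mutant), Adamts1 (5 of 15), Kazald1 (7 of 14), Ccn5 (4 of 15), Ddit4 (2 of 15), Pappa (1 of 15, glmTreat) and Adam12 between the mutants (1 of 15, glmTreat, adjusted p = 0.0206).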

How the data were processed

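Total RNA of 9 MEF cultures was sequenced, 3 per genotype. The authors deposited unnormalised read counts for Ensembl genes. They used cutadapt for trimming, STAR (version 2.5.2b per the submitters' processing notes) for alignment to GRCm38 and TEtranscripts for counting, whose annotation release is not given in the sources used here. Symbols, positions and exon lengths came from GENCODE M21 (GRCm38), which matched 47310 of 47937 identifiers, and promoter sequences from RefSeq (GRCm38.p6), which matched all 9 members. Multiply aligned reads can be shared among similar genes, but at most 0.914% of the 75-mers of a member occur in another annotated gene.

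Counts were fitted in R 4.3.3 with edgeR 4.0.16 (filterByExpr, TMM, glmQLFit, glmQLFTest) in a single fit of all libraries, which left 15540 genes. CPM were scaled by TMM factors. Standard errors come from log2 CPM with a prior count of 2, and edgeR's common estimate of biological variation (BCV) was 5.36%. Libraries of a genotype differed by more than counting noise (chi-square per degree of freedom at least 2.63). At these depths 3 counts correspond to between 0.0923 and 0.141 CPM in a library. p-values measure the spread between cultures of 1 clone.

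The members and lists were chosen with earlier results of these data known. Named genes are the 9 members, listed pathway genes called in any contrast, Igf2, Insr and Igfbp1, the 2 nearest profiles of each called member and neighbours called in the same contrast as the member. Outside this rule, Tns4, Rest, Polr2b, Airn, Irs1, Irs2, Stc2, the Igf2bp genes and single cell type markers were named after their values were seen. Alternatives were DESeq2 1.42.0, its size factors, no composition factor, other filters and cutoffs, glmTreat, a fit restricted to each pair of genotypes, a replicate block, removal of chromosome medians, and leaving out each library.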

Additional observations from a re-analysis of the deposited data

Results flagged for a closer look

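The effects of the mutants against WT differed from each other for 5 of the 7 IGF genes tested, by the direct contrast of G9Gl against S1S2 at an adjusted p of at most 0.01 (edgeR). The log2 fold changes were -1.23 for Igf1, 0.48 for Igf1r, 5.30 for Igfbp3, 0.85 for Igfbp4 and -0.62 for Igfbp6. Of all genes tested, 42.6% passed the same limit. Igfbp6 passed the test against WT in opposite directions in the mutants. Igfbp3 entered the test only through G9Gl, its fitted value rests on 3 counts in S1S2, and its call in S1S2 against WT was lost in 4 of 13 alternatives. Groups of 3 libraries were not screened for single deviating libraries.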

How the results depend on the processing

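Neither DESeq2, another scaling (DESeq2's size factors or library totals alone), leaving out the filter nor the removal of chromosome medians moved the counts of called members and pathway genes by more than 1.5 times; leaving out the filter added Igfbp2 in S1S2 against WT and against G9Gl. Without 1 library each, from 2 to 3 members were called in S1S2 against WT, 3 in G9Gl against WT and 2 between the mutants, and from 6 to 9, from 7 to 9 and from 7 to 8 pathway genes. With at least 10 counts required in every library, which removes Igfbp3 and Igfbp7 from the test, 1 member was called in each contrast, and 5 pathway genes in S1S2 against WT and 5 between the mutants. With an adjusted p of at most 0.05 or 0.01 and no cutoff on fold change, 5 members passed in each contrast. Pathway genes then numbered 41 or 37 in S1S2, 37 or 28 in G9Gl and 42 or 37 between the mutants, of 60 tested, where 48.9% or 37.9%, 45.9% or 35.0% and 53.3% or 42.6% of all genes passed. With glmTreat, 1 member was called in S1S2 and 1 between the mutants, and 5 pathway genes in S1S2 and 5 in G9Gl against WT. In the fit of only the libraries compared, 1 member was called in S1S2 because Igfbp3 and Igfbp7 did not pass its filter. No member reversed a difference that had passed the test. Replicate numbers did not pair the libraries: after centring each genotype, libraries with the same number correlated between -0.0686 and 0.124, and 3, 3 and 0 of 6 libraries correlated best with their own number. With the replicate block, 3, 3 and 2 members were called. Low depth limits Igfbp2, Igfbp3, Igfbp5 and Igfbp7, for which counting intervals are wide.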

Other observations

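A few pathway genes that missed the cutoff on fold change were singled out after their values were seen. The receptor substrate gene Irs1 fell in S1S2 and G9Gl, with 208 ± 24.1 CPM in WT against 125 ± 4.08 and 117 ± 11.2 (adjusted p = 2.58e-07 and 4.98e-08, edgeR, log2 fold changes -0.74 and -0.83). Irs2 rose in S1S2 from 53.9 ± 5.41 to 81.4 ± 4.58 CPM (0.59, adjusted p = 1.04e-06) and was at 49.7 ± 2.25 in G9Gl. Among the RNA-binding proteins of Igf2 mRNA, Igf2bp1 and Igf2bp3 rose in S1S2 (0.34 and 0.69) and Igf2bp2 fell in G9Gl (-0.50, adjusted p = 3.06e-08). Stc2, an inhibitor of PAPP-A, fell in S1S2 from 23.1 ± 2.42 to 12.8 ± 3.22 CPM (-0.86, adjusted p = 3.94e-05).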
